A study of Mus musculus with 32 samples.

Results

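The response of each gene to loss of Kat7 was compared between LSK cells and progenitor cells of the same mice. The product of Kat7, a gene also known as Hbo1, is the enzyme that gives its histone acetyltransferase complex its activity. The quantity examined was the knockout effect in LSK cells minus the knockout effect in progenitors, on the log2 scale, here called the interaction. It was averaged with equal weight over 2 ways of deleting the gene and was also computed within each. All 32 libraries of the series entered the fit, and 14459 of the 27179 genes in the deposited table passed a filter on low counts. A positive interaction means that the knockout effect was higher in LSK cells, and a negative one that it was lower there, whichever of the populations changed.

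The 16 adult C57BL/6 mice each gave 1 LSK and 1 progenitor library, so the 8 groups of libraries hold 4 mice each. Knockout mice were Hbo1 fl/fl and had lost both alleles. Controls were Hbo1 fl/+ and, according to their titles, had themselves lost 1 allele, although the treatment protocol describes them as wild type. Every mouse carried a Cre recombinase and received its inducing agent, controls included. CreER is RosaCreERT2, a broadly expressed Cre that was activated with tamoxifen. Mx1Cre is driven by an interferon-responsive promoter and was switched on with polyIC, which induces interferon. Cre line and inducing agent therefore cannot be told apart. The ages, the time from induction to sorting and the gate that defined progenitors are not given in the labels.

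LSK cells lack lineage markers and carry Sca-1 and Kit on their surface, and in the bone marrow they include hematopoietic stem cells and multipotent progenitors. Downstream of them, committed progenitors give rise to erythroid, megakaryocyte, granulocyte and monocyte cells. KAT7 acetylates histone H3 in complexes with a scaffold of the BRPF or JADE family, an ING protein and MEAF6, and it is known for a role in transcription and in the licensing of replication origins. The series concerns the quiescence and self-renewal of blood stem cells. The interaction asks which genes respond differently to the same deletion in the stem cell fraction and in its progeny.

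Total counts per library ran from 7275277 to 18409271. Kat7 (Entrez 217127) stood at 39.7 to 78.0 CPM (the count scaled to library size) in the 16 control libraries and at 0 to 1.65 CPM in the 16 knockout libraries. Ly6a, which encodes Sca-1, stood at a mean of 92.0 CPM in LSK CreER controls and 18.6 CPM in LSK Mx1Cre controls, against 5.15 and 3.14 CPM in the matching progenitor controls. Ly6a thus separated the populations within each Cre line, but its level in LSK cells was not alike in the Cre lines. Kit stood at means of 250 to 451 CPM in all 8 groups. In LSK CreER knockouts 2 and 3, sex-linked genes went against the sex in the labels. In progenitor Mx1Cre control 1 and knockout 4, the slope of log2 CPM over log2 exon length was lower than in any other library (-0.384 and -0.325 relative to the median slope). Counts were therefore also made without each of these pairs of libraries. LSK CreER knockouts 2 and 3 belong to the same group, so an exchange between them leaves a fit with 1 mean per group unchanged. Leaving both out also makes that group smaller, and how far this alone lowers the counts was not tested.

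Of the 14459 genes tested, 364 had an interaction with an adjusted p under 0.05 in edgeR's quasi-likelihood test with Benjamini-Hochberg adjustment (2.52%), and these are referred to as called. The knockout effect was lower in LSK cells for 205 of them (1.42%) and higher for 159 (1.1%). With the mouse as a block, which compares the populations within each animal as labelled, 769 genes were called (5.32%), 398 higher (2.75%) and 371 lower (2.57%), and 352 of the 364 were among them. The knockout effect itself was called for 2704 genes in LSK cells (18.7%), where 8.33% of all genes rose and 10.4% fell. In progenitors it was called for 1909 genes (13.2%), and 4.58% of all genes rose there and 8.62% fell. Of the 955 genes called in both populations, 928 moved the same way and 27 in opposite directions. An interaction was called for 8.47% of the genes whose effect was called in LSK cells and for 9.9% of those called in progenitors. Across the 14459 genes, the effects in the populations, which come from the same mice, had a Pearson r of 0.553. Without LSK CreER knockouts 2 and 3 the count of interactions was 148 (46 higher, 102 lower), and without progenitor Mx1Cre control 1 and knockout 4 it was 768.

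**Figure D1:**
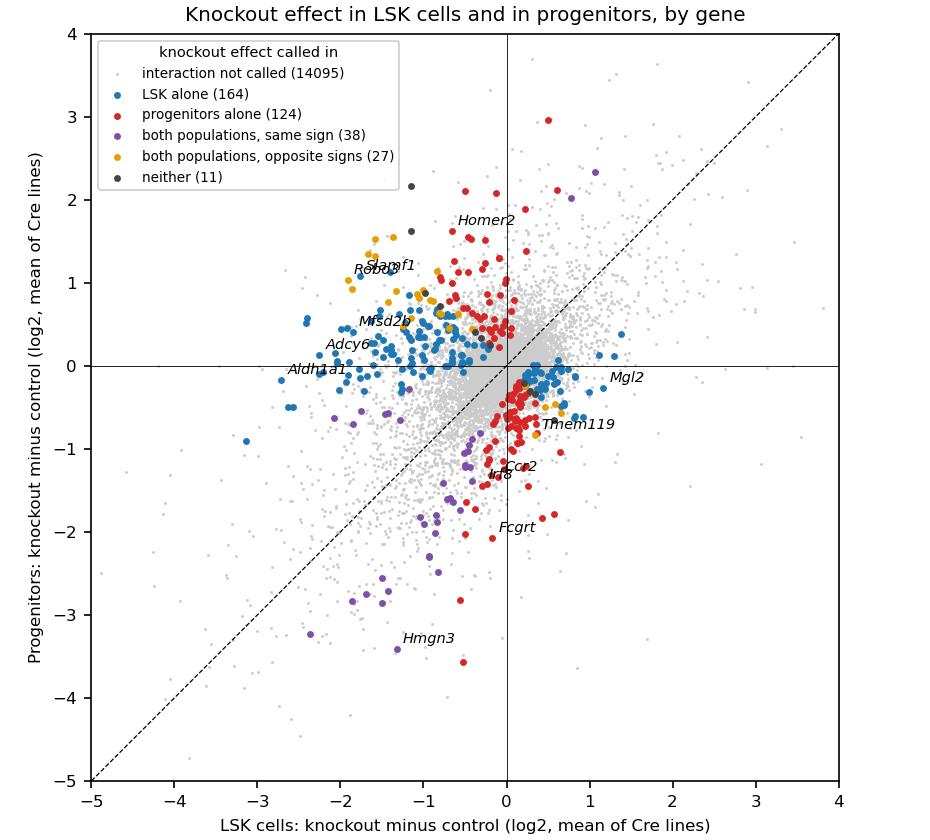
Knockout effect on each gene, with LSK cells on the x axis and progenitors on the y axis, both as log2 knockout minus control averaged over the Cre lines; coloured points are the 364 genes with a called interaction, by the populations in which the effect itself was called. Genes on the dashed line responded alike. The blue points left of it and near the horizontal zero line fell in LSK cells alone, and the red points near the vertical zero line changed in progenitors alone. The axes leave out 8 genes, of which 0 had a called interaction.

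The 2 directions were built differently. Of the 205 genes with a lower effect in LSK cells, 117 fell in LSK cells without a called change in progenitors, 50 rose in progenitors alone, and 22 fell in LSK cells and rose in progenitors. Another 7 fell in both populations, 2 rose in both, and 7 were called in neither. Their median effect in LSK cells was -0.86, and the one in progenitors 0.43. Of the 159 genes with a higher effect in LSK cells, 74 fell in progenitors alone, 47 rose in LSK cells alone, 29 fell in both populations but further in progenitors, 5 rose in LSK cells and fell in progenitors, and 4 were called in neither. Their median effect was 0.16 in LSK cells and -0.61 in progenitors. These medians describe genes selected on the same contrast. The libraries are bulk RNA, so fewer cells of a type and less RNA per cell cannot be told apart in any of the results.

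Adcy6 (Entrez 11512, chromosome 15, 98589978 to 98610287 on mm10), an adenylyl cyclase gene, was among the genes with the lowest adjusted p. In LSK cells it stood at 73.3, 76.1, 53.6 and 88.6 CPM in CreER controls and at 43.7, 42.9, 47.8 and 37.6 CPM in CreER knockouts. With Mx1Cre the LSK values were 63.9, 54.9, 40.9 and 47.0 CPM in controls and 2.56, 4.89, 2.98 and 4.77 CPM in knockouts. Every LSK knockout library lay below every LSK control of its Cre line. In progenitors the values were 123, 116, 68.2 and 104 CPM in CreER controls against 98.1, 99.4, 75.3 and 103 CPM in CreER knockouts. Progenitor Mx1Cre controls held 37.3, 38.0, 16.8 and 13.2 CPM and knockouts 59.3, 28.6, 28.6 and 20.7 CPM. The progenitor groups overlapped in both Cre lines. The effect was -2.25 ± 0.22 (log2, SE) in LSK cells and 0.13 ± 0.20 in progenitors, and the interaction was -2.38 ± 0.30 (edgeR, Benjamini-Hochberg adjusted p = 4.35e-05).

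Mfsd2b, which encodes a sphingosine-1-phosphate exporter of red cells and platelets, had a closely similar pattern. It stood at 99.1 to 142 CPM in LSK CreER controls and 66.3 to 84.0 CPM in the knockouts, and at 60.8 to 119 against 8.70 to 13.6 CPM with Mx1Cre. In progenitors the ranges were 132 to 261 against 114 to 238 CPM with CreER and 28.1 to 69 against 62.2 to 133 CPM with Mx1Cre. The LSK groups were apart in both Cre lines, and the progenitor groups overlapped in both. Its interaction was -2.26 ± 0.28 (edgeR, Benjamini-Hochberg adjusted p = 4.35e-05). Large negative interactions were also found for Dnah12, an axonemal dynein gene (-2.98 ± 0.43), Aldh1a1, a retinaldehyde dehydrogenase gene (-2.54 ± 0.52), and Ptpn14, a protein tyrosine phosphatase gene (-2.22 ± 0.37). These 3 genes fell in LSK cells, with effects of -2.41, -2.71 and -2.07, and were not called in progenitors. With CreER, the LSK ranges were 4.67 to 6.57 CPM in controls against 3.20 to 4.49 CPM in knockouts for Dnah12. They were 22.1 to 30.1 against 13.3 to 24.4 CPM for Aldh1a1 and 5.34 to 14.2 against 7.08 to 10.3 CPM for Ptpn14, both with overlap. In LSK Mx1Cre knockouts the genes stood at 0 to 0.379, 0.088 to 1.04 and 0.569 to 1.02 CPM, and these low levels limit the sizes given. The scaffold gene Homer2 was built the other way, with an effect of 1.62 ± 0.26 in progenitors and -0.66 ± 0.26 in LSK cells, of which the former was called (interaction -2.28 ± 0.36). The highest Benjamini-Hochberg adjusted p among these 4 interactions was 0.00708 in edgeR.

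Genes that mark stem cells and the megakaryocyte and erythroid lineages were found among the negative interactions. Of 17 megakaryocyte genes measured, 7 had a lower effect in LSK cells and 0 a higher one, beside 1.42% and 1.1% of all genes, with a median interaction of -1.05 against 0.02 over all genes. The mouse block added Treml1, a platelet receptor gene (-1.42 ± 0.38). The 7 were Rab27b, which serves platelet granule secretion (-1.94 ± 0.32), the integrin subunit gene Itga2b (-1.05 ± 0.21), the platelet glycoprotein genes Gp5 (-1.39 ± 0.29), Gp1ba (-1.72 ± 0.35) and Gp1bb (-1.80 ± 0.41), the von Willebrand factor gene Vwf (-1.42 ± 0.34) and the platelet chemokine gene Pf4 (-1.41 ± 0.37). In LSK cells 11 of the 17 fell and 1 rose, while in progenitors 1 fell and 3 rose. Of all genes 10.4% fell and 8.33% rose in LSK cells, and 8.62% fell and 4.58% rose in progenitors. The list's median interaction was -0.05 with CreER and -2.14 with Mx1Cre. The summed level of the list was 817 to 921 CPM in LSK CreER controls against 563 to 657 CPM in knockouts. With Mx1Cre the LSK sums were 536 to 675 against 378 to 418 CPM, and neither pair overlapped. In progenitors the sums were 506 to 797 against 369 to 564 CPM with CreER (medians 558 and 430). With Mx1Cre they were 314 to 413 against 344 to 393 CPM (medians 334 and 353), and both progenitor pairs overlapped. Vwf lost its call without progenitor Mx1Cre knockout 1, when its edgeR adjusted p was 0.0557.

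Of 22 erythroid genes measured, with a median interaction of -0.97, 4 had a lower effect in LSK cells and 0 a higher one, beside 1.42% and 1.1% of all genes. They were Gata1, the erythroid and megakaryocyte transcription factor gene, Klf1, a further erythroid transcription factor gene, the erythropoietin receptor gene Epor and the water channel gene Aqp1, with interactions of -1.63, -1.52, -1.73 and -1.72. Each of the 4 fell in LSK cells in the mean of the Cre lines and was not called in progenitors. Of the whole list 6 fell and 2 rose in LSK cells, beside 10.4% and 8.33% of all genes. In progenitors 0 fell and 4 rose, beside 8.62% and 4.58%. The list's median effect was -0.17 in LSK cells and 0.45 in progenitors. Within the Cre lines, the LSK effects of Gata1, Klf1, Epor and Aqp1 were -0.46, -0.17, -0.34 and 0.12 with CreER, of which 0 were called, and -2.32, -2.18, -2.10 and -2.22 with Mx1Cre, of which all were. The median interaction of the list was -0.25 with CreER and -1.53 with Mx1Cre. The summed erythroid list in LSK cells ran from 1140 to 1430 CPM in CreER controls and from 1100 to 1380 CPM in knockouts, which overlapped, and from 737 to 1540 against 659 to 686 CPM with Mx1Cre, which did not. The interaction call was lost on leaving out any of 24 of the 32 libraries for Klf1, 7 for Epor and 2 for Gata1, which were progenitor CreER control 3 and progenitor Mx1Cre knockout 1 (edgeR adjusted p = 0.0502 and 0.0501). Single libraries were left out only in the fit without the block. Under the mouse block, 11 of the 22 were called lower, beside 2.57% of all genes. Among the 11 were Gata1 (-1.82 ± 0.23), Klf1 (-1.62 ± 0.145), Epor (-1.84 ± 0.18) and Aqp1 (-1.69 ± 0.16). Their edgeR adjusted p under the block were 0.000127, 3.84e-06, 6.41e-06 and 6.41e-06. The carbonic anhydrase genes Car1 (-1.64 ± 0.16) and Car2 (-1.41 ± 0.23) and the heme synthesis gene Cpox (-0.56 ± 0.11) were also among the 11. Gata1 stood at 52.2 to 73.6 CPM in LSK CreER controls against 37.2 to 50.7 CPM in knockouts, and at 15.2 to 39.8 against 4.74 to 6.63 CPM with Mx1Cre. The LSK groups did not overlap. In progenitor Mx1Cre controls Gata1 stood at 123, 45.8, 12.4 and 20.0 CPM, so that control 1 lay above every knockout (49.9 to 81.4 CPM) and the other controls below. The summed erythroid list ran from 1170 to 4560 CPM in these controls and from 2550 to 3920 CPM in the knockouts. In progenitor CreER cells it ran from 2620 to 3860 CPM in controls and from 3450 to 4860 CPM in knockouts. These progenitor groups overlapped in both Cre lines. Without progenitor Mx1Cre control 1 and knockout 4, 10 of the 22 were called, and without LSK CreER knockouts 2 and 3, 1 was.

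Among 18 stem cell surface and marker genes, with a median interaction of -0.49, 4 were called lower and 0 higher, beside 1.42% and 1.1% of all genes. They were Slamf1, Itga2b, Vwf and Ctnnal1, and the mouse block added Cd34 as higher (0.37 ± 0.10). Slamf1, which encodes the stem cell marker CD150, stood at 13.2, 9.76, 4.48 and 10 CPM in LSK CreER controls and at 6.21, 8.10, 5.41 and 7.15 CPM in knockouts. With Mx1Cre it stood at 5.84, 4.24, 3.25 and 4.22 CPM in LSK controls and at 0.190, 0.859, 0.705 and 0.177 CPM in knockouts. In progenitor Mx1Cre controls it stood at 0, 0.338, 0.501 and 0.279 CPM and in knockouts at 2.54, 1.13, 1.21 and 0.597 CPM. The Mx1Cre groups were apart in each population and in opposite directions, on 11 counts in all in the progenitor controls, while the CreER groups overlapped in both. The interaction was -2.84 ± 0.52 (edgeR, Benjamini-Hochberg adjusted p = 0.00262). Of 22 stem cell transcription factor genes, 4 were called lower: Gfi1b (-1.61 ± 0.36), the GATA cofactor gene Zfpm1 (-1.21 ± 0.24), Hlf (-1.11 ± 0.24) and Tal1 (-0.82 ± 0.17). Gata2 was also called under the mouse block (-0.91 ± 0.25). The list as a whole had a median of -0.12. Of its members 13 were lower in knockout LSK cells and 5 in knockout progenitors, beside 10.4% and 8.62% of all genes.

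**Figure D2:**
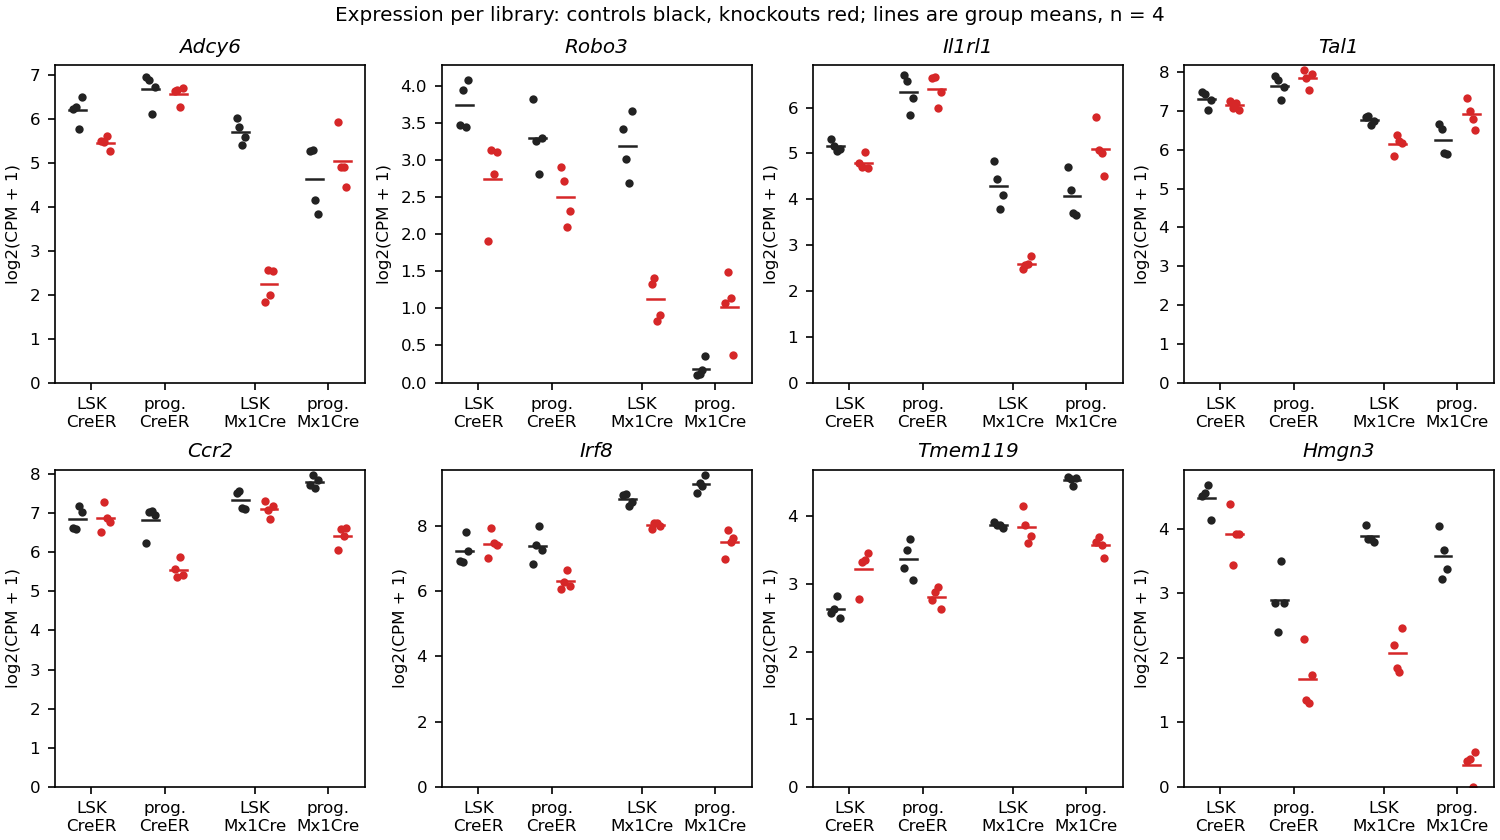
Expression of 8 genes in every library, as log2(CPM + 1), in LSK cells and progenitors (prog.) of each Cre line; black points are controls, red points knockouts, and lines group means of 4 libraries. Adcy6 and Il1rl1 fell most in LSK Mx1Cre knockouts, Ccr2 and Irf8 were lower in knockout progenitors of both Cre lines, and Robo3 was nearly absent from progenitor Mx1Cre controls.

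Opposite changes were called for 27 genes, of which 22 fell in LSK cells and rose in progenitors. Robo3 (chromosome 9, 37416045 to 37433436), a roundabout receptor gene, stood at 10.1, 14.4, 9.91 and 15.9 CPM in LSK CreER controls and at 2.77, 7.81, 5.99 and 7.61 CPM in knockouts. With Mx1Cre it stood at 9.70, 7.06, 5.45 and 11.6 CPM in LSK controls and 1.52, 1.66, 0.783 and 0.883 CPM in knockouts. LSK knockouts thus lay below LSK controls in both Cre lines. In progenitors it stood at 13.1, 8.54, 6.04 and 8.84 CPM in CreER controls and 6.46, 5.6, 3.26 and 3.96 CPM in knockouts. In progenitor Mx1Cre controls it stood at 0.0750, 0.0850, 0.125 and 0.279 CPM, and in knockouts at 1.11, 1.82, 1.21 and 0.299 CPM. Progenitor knockouts thus lay above controls with Mx1Cre, where the controls held 6 counts in all, and mostly below them with CreER. The progenitor effect was 2.99 ± 0.60 with Mx1Cre (edgeR, Benjamini-Hochberg adjusted p = 0.000955) and -0.92 ± 0.33 with CreER (adjusted p = 0.212).

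Abcg2, the efflux transporter gene that marks the stem cell side population, was closer to alike in the Cre lines. In LSK cells it stood at 36.1 to 45.1 CPM in CreER controls against 30.9 to 38.6 CPM in knockouts, and at 24.1 to 33.3 against 11.4 to 15.6 CPM with Mx1Cre. In progenitors it stood at 37.9 to 44.3 CPM in CreER controls against 50.9 to 69.3 CPM in knockouts, and at 18.0 to 52.4 against 34.2 to 48.3 CPM with Mx1Cre. The groups were apart in LSK Mx1Cre and in progenitor CreER cells and overlapped in the other pairs. Abcg2 fell in LSK cells (-0.69 ± 0.14) and rose in progenitors (0.46 ± 0.14), with an interaction of -1.15 ± 0.20, which was -0.85 ± 0.27 with CreER and -1.45 ± 0.28 with Mx1Cre. Tal1, a transcription factor gene required for blood stem cells and for erythroid and megakaryocyte maturation, fell in LSK cells (-0.39 ± 0.12) and rose in progenitors (0.43 ± 0.12). It stood at 99.2 to 115 CPM in LSK Mx1Cre controls against 56.2 to 82.9 CPM in knockouts, without overlap, and the CreER groups overlapped in both populations. The progenitor Mx1Cre groups overlapped as well, at 57.9 to 99.9 CPM in controls against 90.3 to 161 CPM in knockouts. Il1rl1, the receptor gene for the alarmin IL-33, had effects of -1.15 ± 0.18 and 0.58 ± 0.17. Its progenitor levels were 56.4 to 104 against 63.1 to 101 CPM with CreER and 11.6 to 25.0 against 21.9 to 55.0 CPM with Mx1Cre. They overlapped in both Cre lines. Sox6, a transcription factor gene, had effects of -1.05 ± 0.20 and 0.82 ± 0.21. Its progenitor groups were apart with CreER (3.89 to 7.13 against 7.61 to 12.3 CPM) and overlapped with Mx1Cre (1.63 to 4.06 against 3.13 to 9.06 CPM). The adaptor gene Tom1l1 had effects of -1.25 ± 0.15 and 0.48 ± 0.15. Its progenitor groups overlapped with CreER (20.6 to 28.4 against 19.8 to 30.0 CPM) and were apart with Mx1Cre (5.63 to 11.4 against 11.7 to 19.8 CPM). The interactions of Tal1, Il1rl1, Sox6 and Tom1l1 had adjusted p of at most 0.00912 in edgeR's test with Benjamini-Hochberg adjustment. Without progenitor Mx1Cre control 1 and knockout 4, 84 genes were called with opposite changes in place of 27.

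The other 5 genes with opposite changes rose in LSK cells and fell in progenitors. They were Tmem119, Pld4, which encodes an endolysosomal exonuclease, Frmd4b, the matriptase gene St14 and the inhibitory receptor gene Cd300a, with interactions of 1.18, 1.23, 1.05, 0.95 and 0.46. Tmem119 (chromosome 5, 113793729 to 113800396), a membrane protein gene known as a microglia marker, was the only gene whose interaction was called within the CreER mice (1.36 ± 0.23, edgeR Benjamini-Hochberg adjusted p = 0.0379). In LSK cells it stood at 4.93, 5.17, 6.10 and 4.66 CPM in CreER controls and at 5.84, 9, 9.23 and 9.96 CPM in knockouts. In progenitors it stood at 8.48, 10.4, 11.7 and 7.30 CPM in CreER controls and at 5.80, 6.37, 6.76 and 5.20 CPM in knockouts. With Mx1Cre the LSK values were 13.2 to 14.1 CPM in controls and 11.2 to 16.9 CPM in knockouts, and the progenitor values 20.9 to 23.1 and 9.4 to 12 CPM. Knockout progenitors lay below controls in both Cre lines, and the LSK groups overlapped in both. Its mean interaction was 1.18 ± 0.16 (edgeR adjusted p = 0.000141). On leaving out any of 22 of the 32 libraries, 0 genes were called within the CreER mice.

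Monocyte genes made up the clearest group among the positive interactions. Of 22 monocyte and macrophage genes measured, 9 had a higher effect in LSK cells and 0 a lower one, beside 1.1% and 1.42% of all genes, and 19 of the 22 estimates were above 0. The median interaction was 0.90, at 1.17 with CreER and 0.68 with Mx1Cre. In progenitors 10 of the 22 fell and 1 rose, beside 8.62% and 4.58% of all genes. In LSK cells 4 rose and 0 fell, beside 8.33% and 10.4%. The 9 genes were Ccr2, Irf8, Csf1r, Ms4a6c, Ly86, Ctss, Psap, F13a1 and Cd14. The mouse block gave 11 calls, and without LSK CreER knockouts 2 and 3 there were 3, with a median of 0.84. The summed level of the list was 5930 to 9460 CPM in progenitor Mx1Cre controls and 3470 to 6390 CPM in knockouts, and 1660 to 2900 against 1450 to 2110 CPM with CreER. In LSK cells the sums were 1300 to 2260 against 1840 to 2930 CPM with CreER and 3390 to 4170 against 3320 to 3660 CPM with Mx1Cre. The groups overlapped in all 4 of these pairs of sums.

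Ccr2 (chromosome 9, 124101918 to 124109140), the chemokine receptor gene of inflammatory monocytes, stood at 74.2, 131, 133 and 123 CPM in progenitor CreER controls and at 46.4, 40.0, 57.6 and 42.0 CPM in knockouts. With Mx1Cre the progenitor values were 211, 253, 198 and 228 CPM in controls and 65.5, 95.2, 84.9 and 97.8 CPM in knockouts. Progenitor groups were apart in both Cre lines. In LSK cells the values were 97.1, 96.0, 144 and 130 CPM in CreER controls against 91.0, 156, 117 and 108 CPM in knockouts, and 136 to 188 against 114 to 158 CPM with Mx1Cre, with overlap in both. Ccr2 fell by 1.34 in progenitors on the log2 scale, had an LSK effect of -0.11 ± 0.13 and an interaction of 1.24 ± 0.18 (edgeR, Benjamini-Hochberg adjusted p = 0.000253). The interaction was 1.33 ± 0.26 with CreER and 1.15 ± 0.26 with Mx1Cre.

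Irf8, the transcription factor gene that directs monocyte and dendritic cell fate, stood at 113 to 254 CPM in progenitor CreER controls against 66.6 to 99.9 CPM in knockouts, and at 519 to 756 against 126 to 237 CPM with Mx1Cre. In LSK cells the ranges were 118 to 224 against 128 to 244 CPM with CreER and 393 to 505 against 239 to 274 CPM with Mx1Cre. Irf8 was thus lower in every knockout group except LSK CreER, whose groups overlapped. Its interaction was 1.15 ± 0.22 (edgeR, Benjamini-Hochberg adjusted p = 0.00348). Csf1r, the macrophage colony-stimulating factor receptor gene, fell by 1.03 in progenitors, with an interaction of 1.10 ± 0.24. It stood at 38.9, 61.5, 92.6 and 56.8 CPM in progenitor CreER controls and 30.5, 32.8, 38.4 and 33.6 CPM in knockouts, where the highest knockout lay just under the lowest control. Without LSK CreER knockouts 2 and 3 its interaction was 0.96 (edgeR adjusted p = 0.0559). The lysosomal protease gene Ctss had an interaction of 1.10 ± 0.27 and the saposin precursor gene Psap one of 0.65 ± 0.16. The 22 neutrophil granule genes had 0 calls in either direction and a median interaction of 0.37, and with the mouse as a block 6 were called higher, among them Prtn3 (0.90 ± 0.18), Mpo (0.64 ± 0.14) and Cebpa (0.36 ± 0.10). Their summed level overlapped between knockouts and controls of every pair, at 14800 to 26500 against 10400 to 25300 CPM in CreER progenitors.

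Several further genes of this direction fell in progenitors alone, such as Fcgrt, the neonatal Fc receptor gene, with an effect of -2.08 ± 0.30 there and -0.17 ± 0.23 in LSK cells. Tns4, a focal adhesion gene, had effects of -2.82 ± 0.38 and -0.57 ± 0.35, and the receptor phosphatase gene Ptpro of -1.45 ± 0.26 and 0.26 ± 0.24. Mgl2, a macrophage lectin gene, instead rose in LSK cells, by 1.17 ± 0.24, and had a progenitor effect of -0.27 ± 0.23. In LSK Mx1Cre cells Mgl2 stood at 10.8 to 25.9 CPM in controls and 28.9 to 50.7 CPM in knockouts, without overlap, and in LSK CreER cells at 2.60 to 6.10 and 4.31 to 11.3 CPM. The highest Benjamini-Hochberg adjusted p among these 4 interactions was 0.0159 in edgeR. Without LSK CreER knockouts 2 and 3, Tns4 and Mgl2 were no longer called (adjusted p = 0.0750 and 0.0684).

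A further 29 genes of this direction fell in both populations, but more in progenitors. Hmgn3 (chromosome 9, 83109942 to 83147358), which encodes a nucleosome-binding protein, stood at 6.23, 4.27, 10.4 and 6.25 CPM in progenitor CreER controls and at 3.89, 1.54, 1.46 and 2.33 CPM in knockouts. With Mx1Cre it stood at 15.5, 8.37, 11.8 and 9.41 CPM in progenitor controls and at 0.326, 0.347, 0 and 0.448 CPM in knockouts. In LSK cells the values were 16.6 to 24.8 against 9.91 to 20.0 CPM with CreER and 12.9 to 15.7 against 2.43 to 4.51 CPM with Mx1Cre. Knockouts lay below controls without overlap in every pair but LSK CreER. The effect was -3.41 ± 0.27 in progenitors and -1.32 ± 0.21 in LSK cells, an interaction of 2.09 ± 0.35 (edgeR, Benjamini-Hochberg adjusted p = 0.000836). Ica1, an islet autoantigen gene, had effects of -2.83 ± 0.11 and -1.86 ± 0.10, and Pomgnt2, a gene of protein O-mannosylation, of -1.90 ± 0.13 and -1.0 ± 0.12. The B cell receptor gene Cd79b had effects of -1.59 ± 0.13 and -0.68 ± 0.13 and was the only one of 10 B cell genes with a called interaction.

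Hoxa7 belongs to the same set. Hoxa and Hoxb genes encode homeobox factors of stem cell identity. Of 11 measured, 5 fell in LSK cells and 5 in progenitors, beside 10.4% and 8.62% of all genes. Their medians were -0.68 and -1.29. The interaction was called for 1 of the 11, and 10 estimates were above 0. Hoxa7 (chromosome 6, 52215623 to 52218573) stood at 18.7 to 22.3 CPM in LSK CreER controls against 10.1 to 11.4 CPM in knockouts, and at 22.0 to 23.6 against 8.34 to 12.1 CPM with Mx1Cre. In progenitors the ranges were 6.62 to 10.9 against 1.93 to 5.44 CPM with CreER and 11 to 17.3 against 1.54 to 2.86 CPM with Mx1Cre. Hoxa7 was lower in knockouts without overlap in all 4 pairs of groups, and the interaction measured the difference in size, with effects of -1.82 in progenitors and -1.04 in LSK cells. This interaction was 0.78 ± 0.21 (edgeR, Benjamini-Hochberg adjusted p = 0.0447), and the adjusted p was above 0.05 on leaving out any of 22 of the 32 libraries.

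The interaction was not alike in the Cre lines. With CreER 1 gene was called (0.00692%), and with Mx1Cre 297 were (2.05%), of which 235 were lower (1.63%) and 62 higher (0.429%). At an unadjusted p under 0.05 the counts were 533 and 2451, where 5% of the genes tested is 723. Under the mouse block the adjusted counts were 11 for CreER (0.0761%), all higher, and 641 for Mx1Cre (4.43%), with 245 higher (1.69%) and 396 lower (2.74%). The 159 genes with a positive mean interaction had estimates above 0 in both Cre lines, with medians of 0.69 for CreER and 0.79 for Mx1Cre. Of the 205 with a negative one, 199 had the same sign in both, with medians of -0.47 and -2.22. At least 50% of the Mx1Cre size was reached in CreER by 132 of the 159 and by 46 of the 205. These genes were selected on the mean of the same estimates, so their shared signs and sizes are no independent check of agreement. Across all 14459 genes the interactions of the Cre lines, which share no library, had a Pearson r of 0.163.

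The difference between the Cre lines was itself tested, as the Mx1Cre interaction minus the CreER interaction. It was called for 22 genes (0.152%), of which 21 were more negative with Mx1Cre (0.145%). The mouse block gave 78 (0.539%) and limma-voom 2. The difference was called for 20 of the 205 negative interactions and for 0 of the 159 positive ones. Parm1, a mucin-like membrane protein gene, had an interaction of -0.21 ± 0.45 with CreER and -5.83 ± 0.66 with Mx1Cre, a difference of -5.62 ± 0.81 (edgeR, Benjamini-Hochberg adjusted p = 0.000978). Robo3 had -0.13 ± 0.47 and -5.76 ± 0.69 (difference -5.63 ± 0.85), and Rab27b had 0.30 ± 0.39 and -4.19 ± 0.52 (difference -4.49 ± 0.65). Cd55, a complement regulator gene, had -0.20 ± 0.29 and -3.03 ± 0.34 (difference -2.84 ± 0.45). Slamf1 and Il1rl1 had differences of -5.34 ± 1.05 and -2.60 ± 0.51. Among these genes, the levels in control progenitors were far apart in the Cre lines. Slamf1 stood at 6.39 to 16.7 CPM in progenitor CreER controls and 0 to 0.501 CPM in progenitor Mx1Cre controls, and Il1rl1 at 56.4 to 104 and 11.6 to 25.0 CPM. How far this control level enters the difference was not tested.

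**Figure D3:**
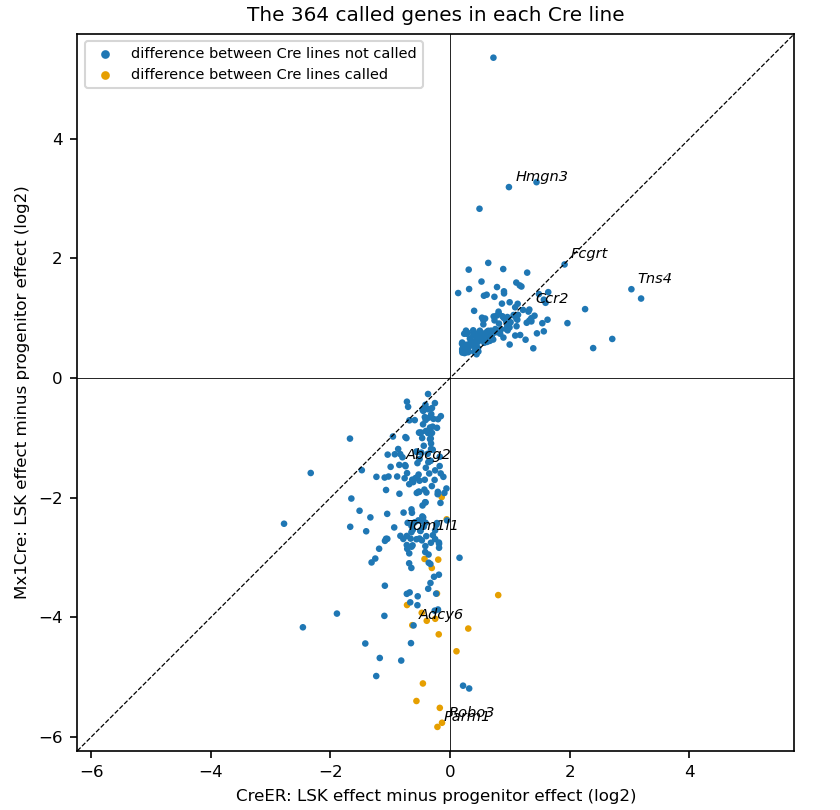
Interaction in CreER cells (x axis) and in Mx1Cre cells (y axis), in log2, for the 364 genes with a called mean interaction; orange points are genes whose interaction differed between the Cre lines. The positive interactions lie around the dashed line of equal size (medians 0.69 and 0.79), and most of the negative ones lie well below it (medians -0.47 and -2.22). The genes were selected on the mean of the plotted estimates.

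The remaining lists had few or no calls. Of the 17 genes of STAT5 signalling and cytokine response, 3 had a lower effect in LSK cells, beside 1.42% of all genes. The 3 were the feedback inhibitor gene Socs2 (-1.88 ± 0.47), Epor and Stat5a (-0.46 ± 0.12). All 3 lost their calls without LSK CreER knockouts 2 and 3, with edgeR adjusted p of 0.0573, 0.0661 and 0.104. The immediate early gene Egr1, which also belongs to the quiescence list, had an effect of -1.60 ± 0.32 in LSK cells and 0.28 ± 0.35 in progenitors and was the only call in each of these lists. Its interaction was -1.88 ± 0.47 (edgeR adjusted p = 0.0285, and 0.0902 without LSK CreER knockouts 2 and 3). Of the 15 mast cell, basophil and eosinophil genes, Il1rl1 alone was called. All 28 oxidative phosphorylation genes had estimates above 0, beside 7756 of the 14459 genes tested, with a median of 0.27, and 0 were called. Of these genes 15 rose in LSK cells and 3 in progenitors, beside 8.33% and 4.58% of all genes. Ribosomal protein genes had 31 of 34 estimates above 0, a median of 0.25 and 0 calls. With the trend over exon length removed, these medians were 0.18 and 0.16, and 1 oxidative phosphorylation gene was called. Interferon-stimulated genes had 0 calls of 35 and a median interaction of 0.26, with median effects of -0.30 in LSK cells and -0.32 in progenitors. Among them 3 fell in LSK cells and 12 in progenitors, beside 10.4% and 8.62% of all genes. With the mouse as a block 4 of them were called higher and 1 lower. The glycolytic mutase gene Pgam1 (0.60) was the only call among 15 glycolysis genes and lost it without LSK CreER knockouts 2 and 3 (edgeR adjusted p = 0.104). Vwf was the only call among 8 endothelial and stromal genes. Genes of S phase, of the G2 and M phases, of p53 response, of lymphoid priming, of T and NK cells and of dendritic cells had 0 calls in either direction. The mouse block added the glycolysis genes Pfkp (0.33 ± 0.09) and Pkm (0.43 ± 0.11) as higher and Hk1 (-0.39 ± 0.09) as lower, the collagen gene Col1a2 of the endothelial and stromal list (-2.47 ± 0.66), H2-DMa of the dendritic list (0.52 ± 0.13), Nkg7 of the T and NK list (0.54 ± 0.15) and the cyclin gene Ccnd1 of the quiescence list (0.68 ± 0.16). Without progenitor Mx1Cre control 1 and knockout 4, 2 glycolysis genes were called higher and 2 lower, 2 endothelial and stromal genes lower, 1 interferon-stimulated gene lower, 2 Hox genes higher, and 1 gene higher in each of the oxidative phosphorylation, lymphoid priming and T and NK lists.

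**Figure D4:**
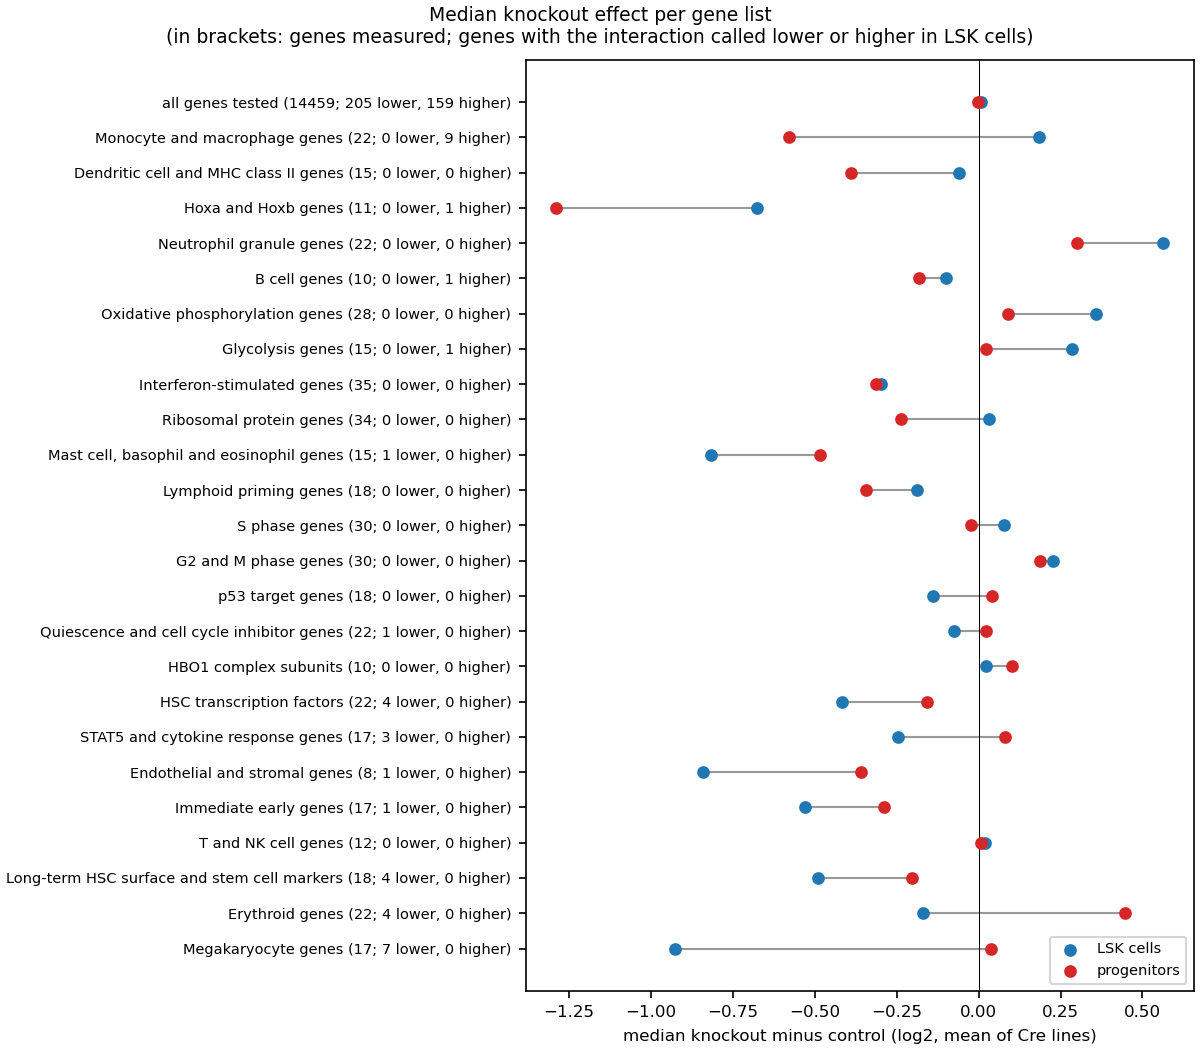
Median knockout effect of each gene list in LSK cells (blue) and progenitors (red), as log2 knockout minus control averaged over the Cre lines, ordered by the median interaction, with all genes tested at the top. The monocyte list had medians of 0.19 in LSK cells and -0.58 in progenitors, and the megakaryocyte list -0.93 and 0.04.

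Of 10 measured subunits of the HBO1 complex itself, 0 had a called interaction. Kat7 had effects of -6.00 ± 0.20 in LSK cells and -6.32 ± 0.21 in progenitors, with an interaction of 0.32 ± 0.30 (edgeR, Benjamini-Hochberg adjusted p = 0.660). The scaffold gene Jade2 rose in both populations (0.38 ± 0.11 and 0.53 ± 0.12), and Ing5, which encodes a subunit that reads methylated histone H3, rose in progenitors (0.21 ± 0.07). The interactions of the other scaffold genes were 0.07 ± 0.16 for Brpf1, 0.04 ± 0.10 for Brd1, -0.33 ± 0.26 for Brpf3, -0.03 ± 0.11 for Jade1 and -0.40 ± 0.24 for Jade3.

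Promoters of the genes with a positive interaction were searched for letters that transcription factors of blood lineages are known to bind, because monocyte genes depend on the ETS factor PU.1. The window ran from 250 bases before to 50 after each RefSeq start site (GRCm38.p6), and 129 of the 159 genes matched a promoter (81.1%). The PU.1-type letters GAGGAAGT, read on both strands, were found in 18 of the 129 (14%), beside 3.28% of all 27025 promoters of the table and 3.38% of those of tested genes. Of these 18 matches, 10 began in the 100 bases before the start site. Of the called monocyte genes, only Ctss was among the 18. The GATA letters AGATAA were found in 10.1%, beside 11.4% of all promoters and 6.89% of those of tested genes. The AP-1 letters TGACTCA were found in 6.2%, beside 5.17% and 3.63%. The common ETS letters CCGGAAGT, which share the core GGAAGT with the PU.1-type letters, were found in 2.33%, beside 4% and 8.27%. The E-box CACCTG was found in 15.5%, beside 20% and 17.5%. Only 73.5% of tested genes matched a promoter. Of the 205 genes with a negative interaction 79% did, and 5 of these 162 promoters (3.09%) held the PU.1-type letters. Both sets are under the 80% asked of a set here, so their shares are printed only and nothing is concluded from them. A match describes the sequence only, and binding was not measured. The 250 bases before the start site are shown for 3 of the 18, those with the lowest p whose matches all lie inside these bases, leaving out genes known only by a clone name, with the match in capitals. They belong to Nostrin, a regulator of endothelial nitric oxide synthase (chr2:69135550-69135799, + strand, interaction 1.45 ± 0.31), Nlrp1a, an inflammasome sensor whose close paralogs may share its counts (chr11:71144705-71144954, - strand, 0.94), and the cathepsin C gene Ctsc (chr7:88277835-88278084, + strand, 0.60).
Nostrin: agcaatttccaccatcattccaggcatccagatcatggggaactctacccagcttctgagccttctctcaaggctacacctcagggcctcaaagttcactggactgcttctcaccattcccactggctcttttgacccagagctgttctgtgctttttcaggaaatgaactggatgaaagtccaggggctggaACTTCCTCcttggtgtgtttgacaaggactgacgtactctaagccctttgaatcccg
Nlrp1a: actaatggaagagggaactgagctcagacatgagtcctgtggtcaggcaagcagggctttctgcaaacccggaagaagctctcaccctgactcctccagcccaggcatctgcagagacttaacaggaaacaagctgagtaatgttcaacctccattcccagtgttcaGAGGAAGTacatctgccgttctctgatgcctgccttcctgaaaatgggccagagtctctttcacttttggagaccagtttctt
Ctsc: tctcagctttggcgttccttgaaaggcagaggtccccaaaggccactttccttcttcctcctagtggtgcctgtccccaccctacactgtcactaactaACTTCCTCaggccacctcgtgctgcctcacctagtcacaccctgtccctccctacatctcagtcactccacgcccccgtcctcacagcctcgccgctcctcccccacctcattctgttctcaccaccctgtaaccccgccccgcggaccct
In Nostrin the match began 57 bases before the start site, in Nlrp1a 83 and in Ctsc 151, and only that of Nlrp1a lay on the strand of the gene.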

How the data were processed

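RNA was sequenced from sorted LSK and progenitor cells of 16 mice, from 50 ng of total RNA with an Illumina TruSeq kit and reads of 80 bp pairs, per the labels' protocols. The authors deposited raw read counts per gene, made with featureCounts on mm10 per the submitters' processing notes; the sources used here do not give the aligner, annotation, version or strand setting, so reads of a gene and an antisense neighbour cannot be told apart. The columns of the deposited count table were identical to the samples' own files for 32 of 32 libraries. Genes were identified by Entrez number, and the 1904 without a symbol held 3.92% of counts and were tested with the rest.

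Counts were filtered with filterByExpr over the 8 groups (minimum 10 counts, 15 in total), scaled by TMM and fitted with edgeR 4.0.16 in R 4.3.3 (quasi-likelihood test, 1 mean per group, all 32 libraries). The interaction was the LSK knockout effect minus the progenitor knockout effect. P-values were adjusted by Benjamini-Hochberg over 14459 genes, with a threshold of 0.05. Standard errors were taken from the log2 fold change and its F statistic. CPM values were computed from the deposited counts with TMM-scaled library sizes. Depth differed between libraries by less than 3 times, with a median of 12207444 counts, and 3 counts over a group of 4 libraries equal 0.0531 to 0.0703 CPM. On simulated counts with known changes in the interaction, the test recovered 75% of 100 genes at a log2 change of 1 and 95% of 100 genes at 2, with 3 false calls among 14459 genes. The simulated libraries were independent of each other and held the same change in both Cre lines. Libraries that share a mouse and changes that differ between Cre lines were thus not covered.

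The replicates are mice. Each mouse gave both libraries, and same-mouse libraries deviated together from their group means with a median r of 0.248 (-0.0939 to 0.427, over 0.1 in 14 of 16 mice), against -0.0992 for other mice. The exceptions were the mice of LSK CreER knockouts 2 and 3 (r -0.0939 and -0.0634), whose sex-linked genes went against the labels. The block may thus not pair these libraries within an animal. Because most mice did pair, the fit with the mouse as a block, by the labels, is given beside counts and lists that it changes. The gene lists and the choice of comparison were made with earlier results of these data known. Genes named with full values were taken from the HBO1 subunits, the 12 largest called interactions in each direction with 1 sign in both Cre lines and a mean log2 CPM of at least 1, and the genes with the lowest p among those called: 4 in each direction within each Cre line and in the difference between them, 10 among opposite changes and up to 4 in each list. Unnamed gene models were left out, and any other gene named was chosen after its values were seen. Alternatives were DESeq2 1.42.0, limma-voom 3.58.1, other scalings and filters, sex as a covariate, removal of the exon length trend and leaving out each library.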

Additional observations from a re-analysis of the deposited data

Results flagged for a closer look

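The genes plotted or shown by library, the total counts and the exon length slopes were examined in 144 groups of 4 libraries. Of these groups 3 held a library far from the other 3, and chance gives about 1 in 20. Kat7 stood at 64.4 CPM in LSK Mx1Cre control 4 against 72.8 to 74.4 CPM in the other controls of the group. Mfsd2b stood at 133 CPM in progenitor Mx1Cre knockout 1 against 62.2 to 70.7 CPM in the others. Ccr2 stood at 74.2 CPM in progenitor CreER control 1 against 123 to 133 CPM, and this control still lay above the progenitor CreER knockouts.

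The interaction of 22 genes differed between the Cre lines in edgeR's test of the difference itself. Mx1Cre minus CreER, on the log2 scale, it was -5.63 for Robo3, -5.62 for Parm1, -5.34 for Slamf1, -4.49 for Rab27b, -3.50 for Adcy6, -3.07 for Mfsd2b, -2.84 for Cd55 and -2.60 for Il1rl1. The only positive difference belonged to the immunoglobulin gene Ighg2b, fitted as 15.9. Ighg2b had 1 count in all in progenitor CreER controls and 1 in progenitor Mx1Cre knockouts, against 431 in progenitor CreER knockouts and 103 in progenitor Mx1Cre controls, so the fitted size is no measure of a fold change.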

How the results depend on the processing

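The counts of called genes, 364 for the mean interaction, 1 for CreER, 297 for Mx1Cre and 22 for the difference between Cre lines, depended on the settings, and the cause was not tested except where the setting itself changes the samples or the threshold. DESeq2 called 611, 13, 523 and 52. With the mouse as a replicate block the counts were 769, 11, 641 and 78, and with LSK CreER knockouts 2 and 3 exchanged between mice as well 877, 43, 786 and 83. Without these 2 libraries they were 148, 0, 274 and 12. Against a fold of 1.5 they were 34, 0, 116 and 14. Without progenitor Mx1Cre control 1 and knockout 4, an alternative chosen after seeing the data, they were 768, 1, 572 and 42, with 84 opposite changes in place of 27. limma-voom called 0 for CreER and 2 for the difference, and no filter on low counts gave 0 for CreER. Fits of 16 libraries called 0 for CreER and 121 for Mx1Cre. At an unadjusted p under 0.05, the fits with 0 CreER calls had 381 genes without the 2 libraries, 532 by limma-voom, 761 with no filter, 186 against the fold and 755 in the fit of 16, where 5% of 14459 genes is 723.

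Leaving out 1 library gave 186 to 640 mean interactions, 0 to 4 for CreER, 138 to 576 for Mx1Cre and 13 to 40 for the difference. The mean count moved by over 1.5 times without LSK CreER control 2 (229) or 4 (228), LSK Mx1Cre control 1 (236), progenitor CreER control 3 (188) or knockout 3 (562), and progenitor Mx1Cre control 1 (640) or knockout 1 (186). The Mx1Cre count did so without LSK Mx1Cre control 1 (184), progenitor Mx1Cre control 1 (471), knockout 1 (138) or knockout 4 (576). The difference did so without progenitor CreER control 1 (14), 2 (14) or 3 (34) and progenitor Mx1Cre control 1 (40) or knockout 1 (13). Of 59 named genes with a called interaction, 46 kept it whichever library was left out, and 0 of the 59 changed sign under an alternative. The mouse block changed no other call of these genes than that of Rasal1 (edgeR adjusted p = 0.0888). Any of several single libraries ended the calls of Hoxa7 (22 libraries), Stat5a (21), Pgam1 (14), Egr1 (6) and Socs2 (3). Leaving out LSK CreER knockouts 2 and 3 ended the calls of 16, among them Gata1 (adjusted p = 0.0615), Klf1 (0.0962), Ctnnal1 (0.0598), Ly86 (0.0649) and Hoxa7 (0.119). Depth limits the sizes given for Robo3 and Slamf1, which rest on 6 and 11 counts in progenitor Mx1Cre controls. Low levels likewise limit other sizes given, such as those of Parm1 (0.088 to 0.392 CPM in LSK Mx1Cre knockouts) and Hmgn3 (0 to 0.448 CPM in progenitor Mx1Cre knockouts). The same holds for Tns4 (0.155 to 0.579 CPM in progenitor CreER knockouts) and Socs2 (0.085 to 0.501 CPM in progenitor Mx1Cre controls).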
